A study of Mus musculus with 4 samples.

Results

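The levels of 10 genes that encode NK-cell receptors were followed through the lymphocytes of treated and untreated pancreatic tumours. The genes were taken by symbol from the 32285 genes of the count table, and all 10 of them were present: Klrc1, Klrc2, Klrd1, Klrk1, Klre1, Klri2, Klrb1c, Klrb1f, Klrg1 and Ncr1. They were chosen by name, with earlier results of these data known.

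The cells were live CD45+ leukocytes sorted from tumours that KPC cells had formed under the skin of syngeneic C57BL/6 mice. KPC is a mouse pancreatic cancer line. One group of mice was left untreated. One received the STING agonist ADU-S100, a cyclic dinucleotide that was injected into the tumour. Another received the LTbR agonist 4H8, an antibody that activates the lymphotoxin-beta receptor and was given into the peritoneum. The last received the STING and LTbR agonist together, and its library is called the combination below. All 4 groups carried the same tumour line on the same strain, and the mice were adults. The tumours of a group were pooled before sorting, so each group is 1 library with no value per animal. The study describes more than 1 such experiment and does not say which of them these libraries are.

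The receptors belong to a family that NK cells use to tell healthy cells from infected or transformed ones. Klrd1 encodes CD94, which pairs with NKG2A (Klrc1), an inhibitory receptor, or with NKG2C (Klrc2), an activating one, and both pairs read the non-classical MHC molecule Qa-1 (H2-T23). Klrk1 encodes NKG2D, an activating receptor for stress-induced ligands of the RAE-1, H60 and MULT1 families, which signals through the adaptors DAP10 (Hcst) and DAP12 (Tyrobp). Klre1 and Klri2 encode lectin-like proteins that can pair with each other on NK cells. Klrb1c encodes NK1.1, the antigen by which NK cells of C57BL/6 mice are recognised, and Klrb1f is a close relative of it. Klrg1 encodes an inhibitory receptor for cadherins that marks mature NK cells and differentiated T cells. Ncr1 encodes NKp46, an activating receptor that marks NK cells and group 1 innate lymphoid cells (ILC1), and it is of the immunoglobulin family and not a lectin.

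Of the genes, 8 lay within 962 kb of chromosome 6, the NK gene complex (GRCm38, chr6:128778485-129740484). Klrb1c came first, at chr6:128778485-128789215, and Klri2 last, at chr6:129729041-129740484. The inhibitory and activating NKG2 genes were neighbours, with Klrc2 at chr6:129647496-129660689 and Klrc1 at chr6:129666015-129678973, both on the minus strand. Klrk1 was at chr6:129610323-129623864 on the minus strand, and Klrd1 at chr6:129591782-129598775 on the plus strand. Klrg1 lay outside the complex, at chr6:122270596-122282882. Ncr1 was on another chromosome, at chr7:4337724-4345164. Klrc1, Klrc2 and Klrc3 are paralogs that may share reads, so their separate levels are uncertain. Klrb1c overlaps the same-strand gene Gm44511, which was not counted. Klrb1f overlaps Gm44000 on the opposite strand, and whether the counting used strand is not given in the sources used here.

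Promoter windows are shown for 3 genes that stand for different patterns below. Ncr1 had 85.2% of its UMIs in the NK- and ILC-like class. Klrc1 was high in CD8 T cells and ILC1-like cells, and Klrk1 was spread over many lymphocytes. Each window is the 250 bases before a RefSeq start (GRCm38.p6), read 5′ to 3′ on the strand of the gene. Capitals mark the letters TGTGGT or their reverse complement ACCACA, the core bound by Runx factors such as Runx3.
Ncr1, chr7:4337474-4337723, plus strand: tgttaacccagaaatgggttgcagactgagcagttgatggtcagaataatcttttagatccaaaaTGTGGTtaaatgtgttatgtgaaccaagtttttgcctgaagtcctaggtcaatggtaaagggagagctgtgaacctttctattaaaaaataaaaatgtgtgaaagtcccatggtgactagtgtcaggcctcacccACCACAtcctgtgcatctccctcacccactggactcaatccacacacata
Klrc1, chr6:129678974-129679223, minus strand: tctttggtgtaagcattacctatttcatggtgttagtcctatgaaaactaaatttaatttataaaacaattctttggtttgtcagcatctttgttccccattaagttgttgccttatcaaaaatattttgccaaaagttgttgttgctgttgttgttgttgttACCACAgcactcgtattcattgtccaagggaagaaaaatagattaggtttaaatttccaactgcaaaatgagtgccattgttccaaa
Klrk1, chr6:129623865-129624114, minus strand: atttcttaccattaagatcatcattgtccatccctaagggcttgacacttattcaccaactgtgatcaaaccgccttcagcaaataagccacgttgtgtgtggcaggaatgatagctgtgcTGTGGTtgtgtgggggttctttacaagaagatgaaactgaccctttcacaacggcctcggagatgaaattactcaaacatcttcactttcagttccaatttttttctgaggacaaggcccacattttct
The Ncr1 window held 2 matches, at 185 and 50 bases before the start. The Klrc1 window held 1 match at 87 bases and the Klrk1 window 1 match at 129 bases before the start. RefSeq windows were matched for 7 of the 10 genes, and 6 of these 7 had the Runx letters in at least 1 window, Klrb1f being the exception. Of all 32841 windows of this length, 14.0% held the letters on either strand. That share is per window, while the receptors are counted per gene, some with more than 1 window. The T-box letters GGTGTGA (reverse complement TCACACC) and the STAT letters TTCNNNGAA were in 0 of the receptors' windows and in 3.33% and 7.02% of all windows. A match describes these letters and is not a measured binding site.

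The 4 libraries held 24839 barcodes and 192887078 unique molecular identifiers (UMIs, 1 per captured RNA molecule), and 23011 cells passed the filter. Kept cells had medians between 5750 and 7094 UMIs per library. Of the 24555 barcode sequences, 284 occurred in more than 1 library. Levels below are in CPM, the UMIs of a gene per 1000000 UMIs summed over all cells of a population in a library, with exact 95% Poisson intervals. Values given in a row are in the order untreated, STING agonist, LTbR agonist and combination. These intervals describe the counting error alone. Since each group was a single library, no test was possible, and effects of treatment and differences between pools of tumours cannot be told apart. Levels were compared within a gene, not between genes.

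NK-like cells were 3 sub-clusters that expressed 14 to 16 of the 19 markers of NK cells, and ILC1-like cells were 1 sub-cluster that expressed all 17 markers of ILC1. They held 244, 105, 462 and 239 NK-like cells and 62, 84, 57 and 73 ILC1-like cells. Eomes, the factor that separates NK cells from ILC1, was at 267 to 344 CPM in NK-like and 15.7 to 40.9 CPM in ILC1-like cells. Eomes was itself one of the naming markers. None of the 10 receptors took part in clustering or naming. T-like cells numbered 7622. Those with a UMI of Cd8a or Cd8b1 and none of Cd4 were taken as CD8 cells, and numbered 960, 585, 819 and 1020. One T sub-cluster, called Ly49 T cells after the Ly49 gene Klra7 among its leading genes, held 217, 146, 332 and 249 cells. Of these cells 96.4% had a CD3 UMI, 27.2% were CD8 cells, 2.33% were CD4 cells and 17.1% had a Trdc UMI. The populations are named from RNA and may differ from those of the study.

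Klrc1, the inhibitory NKG2A subunit, was more abundant in tumour T cells and ILC1-like cells than in NK-like cells. In CD8 cells its level was 570.3 (552 to 589), 703 (678 to 728), 389 (373 to 406) and 597 (579 to 615) CPM. In ILC1-like cells it was 448 (386 to 517), 781 (712 to 854), 362 (303 to 429) and 585 (516 to 660.2) CPM, and in NK-like cells 228 (204 to 255), 309 (266 to 356), 200.4 (182 to 220) and 209 (184 to 237) CPM. The NK-like values were below both other populations in every library and did not overlap them. Among 17 lymphocyte sub-clusters with enough cells in each library, the highest means were 711.7 CPM in a CD8 sub-cluster led by Ccl3, Ccl4 and Prf1 and 711 CPM in a sub-cluster led by Setbp1. Their ranges, 444 to 920.4 and 583 to 785.5 CPM, overlapped. The Setbp1-led cells had medians of 2546.5 to 3538 UMIs, against 5877 to 6924 in the Ccl3-led ones, and 71.4% of them had a CD3 UMI. NK-like cells ranked 13 of 17, and their range did not overlap that of the next one down, an Il17a-expressing T sub-cluster at 54.8 to 171 CPM. Regulatory-like T cells, with Foxp3 among their leading genes, had 45.8 to 105 CPM.

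Klrd1, the CD94 partner of both NKG2 chains, was broadly high in cytotoxic cells. CD8 cells had 1040.1, 1055, 701 and 879 CPM, ILC1-like cells had 867, 965, 601 and 903 CPM, and NK-like cells had 683, 697, 656 and 657 CPM. The NK-like values were close to each other, while those of CD8 and ILC1-like cells were lowest in the LTbR agonist library. The Ccl3-led CD8 sub-cluster again had the highest mean, 1243 CPM (856 to 1537), followed by a sub-cluster that expresses granzymes C to F, at 985 CPM (911 to 1097). These ranges overlapped. Klrc2, the activating NKG2C chain, had another order. An unnamed NK- or ILC-like sub-cluster led by Kcnq5 had 275 to 366 CPM, above every other sub-cluster without overlap, from a median of 1977 to 3010 UMIs per cell. NK-like cells had 102, 136, 127 and 115 CPM of Klrc2, and ILC1-like cells 79.5, 70.1, 54.4 and 76.2 CPM. All CD8 cells together had 45.5, 53.3, 40.0 and 44.3 CPM. The CD8 cells of the Setbp1-led sub-cluster had 182, 154, 96.8 and 145 CPM, which overlapped NK-like cells.

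Klrk1, the NKG2D receptor, had its highest means in NK-like cells, at 519, 601, 463 and 453 CPM. ILC1-like cells followed with 402, 512, 326 and 444 CPM, and these ranges overlapped. Ly49 T cells had 274, 415, 247 and 274 CPM and CD8 cells 269, 350.0, 209 and 225 CPM. A sub-cluster of Il17a-expressing cells, of which 66.7% had a Trdc UMI, carried 160 to 259 CPM of Klrk1, beside 15.4 to 45.6 CPM of Klrd1. Regulatory-like T cells were last of 17, at 0 to 28.9 CPM. A Klrk1 UMI was seen in 78.6 to 90.5% of NK-like cells and in 55.1 to 75.2% of CD8 cells. After each cell was thinned to 1000 UMIs these shares were 32.7 to 47.1% and 19.6 to 30.6%. Macrophage- or monocyte-like cells, at median depths of 7760.5 to 10958 UMIs against 4324 to 5171 in NK-like cells, had a Klrk1 UMI in 22.4 to 32.9%, or 4.17 to 5.85% when thinned. B- and plasma-like cells had one in 6.19%, a Klrd1 UMI in 6.44% and a Klrc1 UMI in 4.04%, at a median of 4789 UMIs. Both NK-like and CD8 shares were thus above those of the 2 other cell classes after thinning or at like depth.

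**Figure D1:**
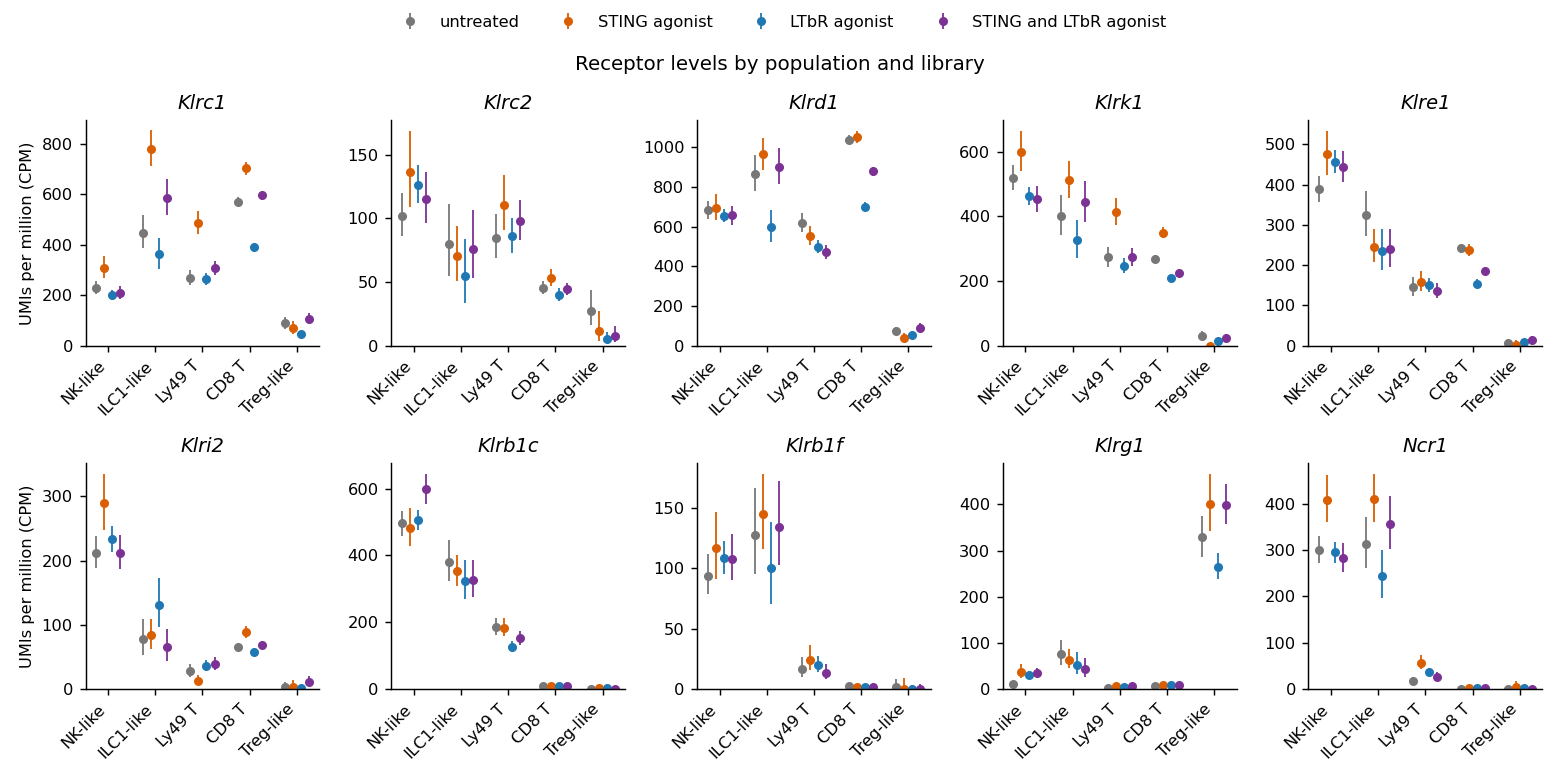
Level of each receptor (CPM, linear axis from 0) in 5 populations, with 1 point per library and bars for the exact 95% Poisson interval, which covers counting error only. Klrb1c and Ncr1 points are high in NK-like and ILC1-like cells and at most 9.39 CPM in CD8 T cells, Klrc1 points of NK-like cells sit below those of CD8 T cells, and Klrg1 points are highest in regulatory-like T cells (Treg-like, 265 to 401 CPM).

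Klre1 and Klri2, the lectin-like pair, had their highest means in NK-like cells, with ranges that overlapped those of the Kcnq5-led sub-cluster (301 to 388 and 127 to 265 CPM). Klre1 was at 388, 476, 457 and 443 CPM in NK-like, 325, 246, 234 and 240 CPM in ILC1-like, 241, 237, 154 and 185 CPM in CD8 and 146, 159, 149 and 136 CPM in Ly49 T cells. Klri2 was at 212, 289, 234 and 212 CPM in NK-like, 77.1, 83.1, 131 and 65.0 CPM in ILC1-like, 65.7, 88.1, 57.3 and 68.5 CPM in CD8 and 27.4, 12.5, 35.3 and 38.1 CPM in Ly49 T cells. Within T cells both genes had their highest means in the granzyme C to F sub-cluster, with 217 to 327 CPM of Klre1 and 74.8 to 130 CPM of Klri2, and these overlapped the 170 to 264 and 61.4 to 111 CPM of the Ccl3-led one. The pair was near the bottom in CD4-rich sub-clusters, where regulatory-like T cells had 2.36 to 13.1 CPM of Klre1 and 0.75 to 10.7 CPM of Klri2.

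Klrb1c, Klrb1f and Ncr1 were highest in innate lymphocytes. Of the 3, Ncr1 had the smallest part of its UMIs in T-like cells, 9.34% against 19.4% for Klrb1c and 15.8% for Klrb1f. The T-like class here includes the cells moved to it for their CD3 UMIs. Klrb1c (NK1.1) had 496, 482, 505 and 598 CPM in NK-like cells and 381, 352, 324 and 327 CPM in ILC1-like cells, and the first range lay above the second without overlap. Ly49 T cells had 185, 183, 126 and 151 CPM, above every other T sub-cluster without overlap. CD8 cells had 7.27 to 9.39 CPM. Ncr1 (NKp46) had 300.2, 409, 295 and 283 CPM in NK-like cells and 313, 411, 245 and 356 CPM in ILC1-like cells, and these 2 ranges overlapped. The next ranked sub-cluster, led by Kcnq5, had 104 to 191 CPM, Ly49 T cells had 15.9 to 56.4 CPM, and CD8 cells had 0.445 to 1.56 CPM. An unnamed NK- or ILC-like sub-cluster led by Cxcl10 had 209 to 329 CPM. It was not ranked, with 12 cells in the STING agonist library. In 6 of the ranked T sub-clusters Ncr1 was at 0 in every library. Klrb1f had 94.1, 117, 108 and 108 CPM in NK-like and 128, 145, 101 and 134 CPM in ILC1-like cells, overlapping each other, and at most 28.2 CPM in any T sub-cluster. The NK- and ILC-like class held 1758 of the 23011 cells, and it carried 85.2% of all Ncr1 UMIs, 72.9% of Klrb1c UMIs and 73.9% of Klrb1f UMIs, against 13.2% of Klrc1 UMIs and 14.2% of Klrd1 UMIs.

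Klrg1, the cadherin receptor, followed a different order from the other 9 receptors. Regulatory-like T cells had 329, 401, 265 and 399 CPM, above every other sub-cluster without overlap. ILC1-like cells came next at 74.7, 63.6, 51.7 and 42.6 CPM, and NK-like cells had 10.1, 35.7, 30.9 and 33.5 CPM. CD8 cells had 5.49 to 8.48 CPM. A Klrg1 UMI was seen in 38.1 to 49.7% of regulatory-like T cells, and in 16.5 to 26.3% after thinning. In NK-like cells the shares were 4.92 to 10.5%, and 0.84 to 4.76% after thinning.

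**Figure D2:**
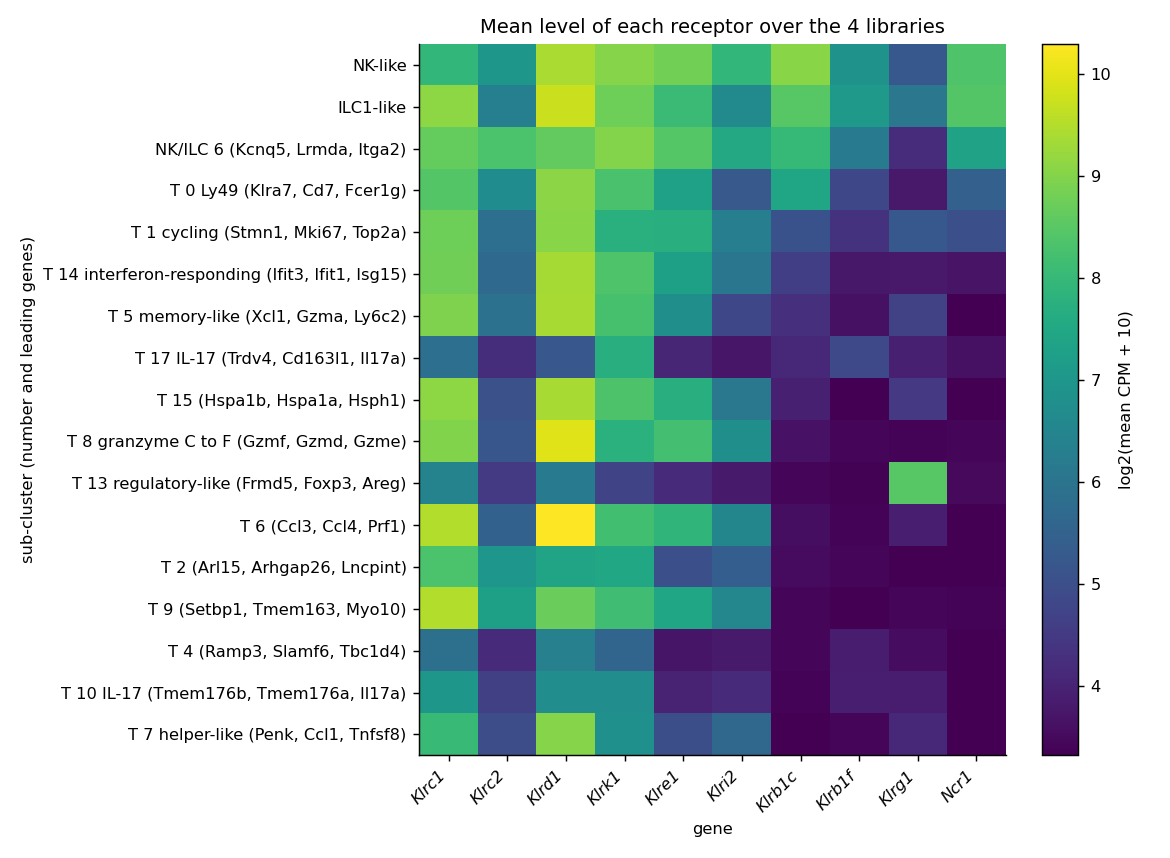
Mean level over the 4 libraries of each receptor (columns) in 17 lymphocyte sub-clusters (rows, with leading genes), as log2 of (mean CPM + 10) on the colour scale. Klrb1c, Klrb1f and Ncr1 are brightest in the NK-like and ILC1-like rows, Klrc1 and Klrd1 are bright in the CD8 sub-clusters as well, and the single bright cell of Klrg1 is the regulatory-like row (348.5 CPM).

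The first comparison asked which receptors separate NK-like from ILC1-like cells. There were 4 receptors higher in NK-like cells in all libraries without overlap, Klri2 the most, with a mean difference of 1.35 on the log2(CPM + 10) scale (0.79 to 1.68 in the 4 libraries). The others were Klre1 (0.74, 0.25 to 0.94), Klrc2 (0.70, 0.32 to 1.09) and Klrb1c (0.57, 0.37 to 0.85). Klrc1 and Klrg1 were higher in ILC1-like cells in all libraries without overlap. NK-like minus ILC1-like was -1.13 (-1.44 to -0.82) for Klrc1 and -0.91 (-2.08 to -0.28) for Klrg1. In ILC1-like cells Klrg1 rested on 31, 39, 19 and 19 UMIs, with 45.2 to 68.4% of those of a library in 3 cells. Its Poisson intervals overlapped those of NK-like cells in every treated library. Klrd1 (-0.28), Klrk1 (0.28), Klrb1f (-0.22) and Ncr1 (-0.03) overlapped, although Klrk1 was higher in NK-like cells in 4 of 4 libraries. Of 9364 genes compared in this way, 7.6% were higher in NK-like and 6.69% higher in ILC1-like cells, so 4 and 2 of the 10 receptors stand beside those shares. Because cells were sorted into these populations by their RNA, and the same cells gave the levels, the differences are a description and not a test. When NK-like and ILC1-like cells were instead gated on Eomes or Klra UMIs, 2 receptors were higher in NK-like and 1 in ILC1-like cells. The share of all genes under that gate is not given, so these counts have no background beside them.

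**Figure D3:**
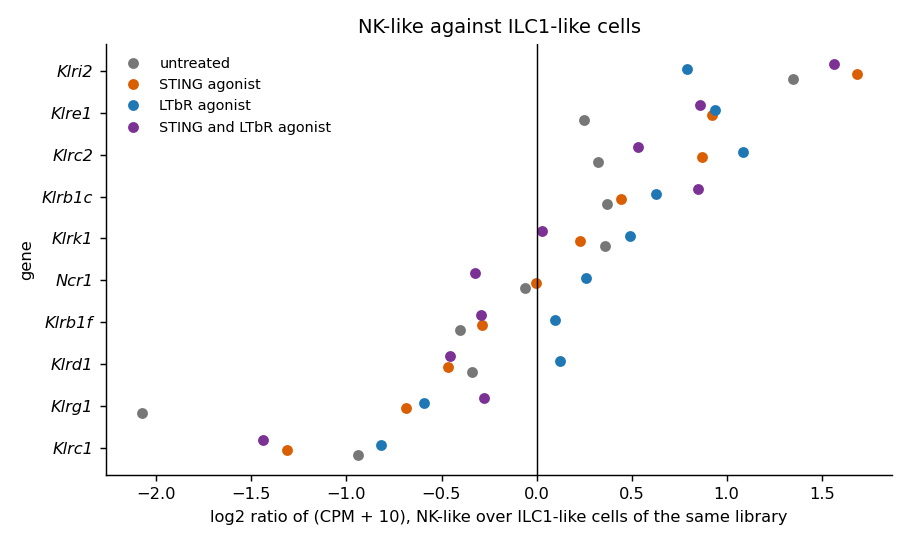
Log2 ratio of (CPM + 10) in NK-like over ILC1-like cells of the same library for each receptor, with 1 point per library and a line at 0. The 4 points of Klri2, Klre1, Klrc2 and Klrb1c lie to the right of the line and those of Klrc1 and Klrg1 to the left, while Ncr1 points lie between -0.32 and 0.26.

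Genes that work with the receptors were compared in the same way. The counts of each list stand beside the 7.6% of all genes higher in NK-like and 6.69% higher in ILC1-like cells. Of 4 adaptors, 2 were higher in NK-like cells and 0 in ILC1-like cells. Cd247, the CD3-zeta chain that NKp46 uses, had 160 to 245 CPM in NK-like and 51.5 to 72.2 CPM in ILC1-like cells. Tyrobp (DAP12) had 2279 to 2592 against 1492 to 1903 CPM, while Hcst (468 to 523 against 453 to 562 CPM) and Fcer1g (1954 to 2052 against 1832 to 2277 CPM) overlapped. Of 12 proximal signalling genes, 4 were higher in NK-like cells and 1 in ILC1-like cells. The adaptor Sh2d1a (SAP) had 138 to 193 against 15.7 to 67.4 CPM, the kinase Fyn had 370.4 to 540 against 132 to 196 CPM, and the phosphatase Ptpn6 (SHP-1), which inhibitory NK receptors recruit, had 84.1 to 116 against 117 to 224 CPM. Of 7 other NK-complex genes that reached 10 CPM, Clec2d was higher in NK-like cells (133 to 163 against 96.4 to 124 CPM). Klrb1b was higher in ILC1-like cells (642 to 1014 against 255 to 316 CPM). Of 4 ligand genes that reached it, 1 was higher in ILC1-like cells. It was Cdh1 (E-cadherin, a ligand of Klrg1), at 53.8 to 87.0 against 1.62 to 20.1 CPM. H2-T23 (Qa-1) overlapped, at 318 to 408 CPM in NK-like and 332 to 494 CPM in ILC1-like cells.

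Of 12 transcription factors, 4 were higher in NK-like and 2 in ILC1-like cells. Beside Eomes and Zeb2, which had served as naming markers, Ikzf2 (Helios) was at 149 to 182 CPM in ILC1-like and 27.6 to 87.7 CPM in NK-like cells. Runx3 differed less, at 353 to 455 against 272 to 340 CPM in ILC1-like cells. Of 14 cytotoxic effectors, 2 were higher in NK-like and 5 in ILC1-like cells. Among these, Gzma had served as a naming marker of NK-like cells, and Tnfsf10 and Xcl1 as naming markers of ILC1-like cells. Gzmd, at 378 to 957 CPM in ILC1-like cells, and Gzme, at 38.1 to 468 CPM, were at most 9.43 and 3.13 CPM in NK-like cells. Gzmc was at 5190 to 6491 against 559 to 840 CPM. Of 7 T cell markers, 2 were higher in ILC1-like cells, Cd3g at 55.4 to 163 against 9.43 to 21.1 CPM and Cd3e at 11.4 to 43.4 against 4.03 to 8.62 CPM. The T cell markers summed to 513 to 663 CPM in ILC1-like and 402 to 478 CPM in NK-like cells, beside 4301 to 5159 CPM in CD8 cells. Of the macrophage, neutrophil, CD4 and CD8, and stroma lists, 4, 1, 3 and 1 genes reached the minimum, and 0 differed without overlap. No gene of the B cell list reached it.

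Ly49 T cells, 895 of 944 of which had first clustered with the NK- and ILC-like class, shared part of the receptor set with NK-like cells. NK-like cells were higher without overlap for 8 of the 10 receptors, beside 11% of 9159 genes. The differences were largest for Ncr1 (mean 3.00, 2.66 to 3.58 on the log2(CPM + 10) scale), Klri2 (2.73), Klrb1f (2.05), Klrb1c (1.64) and Klre1 (1.51). Klrk1 (0.75) and Klrd1 (0.33) differed less, and Klrg1 (1.37) was at only 1.77 to 5.25 CPM in Ly49 T cells. No receptor was higher in Ly49 T cells without overlap, beside 9.94% of genes. Klrc1 overlapped, at 268, 487, 265 and 308 CPM in Ly49 T cells, as did Klrc2, at 84.8, 111, 85.9 and 97.8 CPM.

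Against the T cells that express granzymes C to F, of which 96.4% were CD8 cells, Ly49 T cells were higher for 5 receptors and lower for 3, beside 19.4% and 15.8% of 9378 genes. Klrb1c showed the largest difference, 3.76 (3.17 to 4.17), since it was at 0.75 to 5.09 CPM in the granzyme C to F cells. Ncr1 (1.96), Klrc2 (1.54), Klrb1f (1.38) and Klrk1 (0.51) were also higher in Ly49 T cells. Klri2 (-1.57), Klre1 (-0.88) and Klrd1 (-0.87) were lower there. Klrc1 overlapped and Klrg1 was under 10 CPM in both. The comparison was made over libraries, and only 27.2% of Ly49 T cells were CD8 cells. Among CD8 cells alone, Klrk1 overlapped, at 184.4, 379.7, 171.4 and 188.7 CPM in Ly49 and 221.4, 249.6, 193.9 and 174.4 CPM in granzyme C to F cells. Klrb1c was at 54.6 to 83.3 CPM in Ly49 CD8 cells, below the whole sub-cluster, against 0.782 to 5.24 CPM. The other receptors called above kept their direction without overlap, from 35 to 100 Ly49 CD8 cells per library. The part of the non-CD8 cells in the differences was not tested.

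The next question was how the receptors differed between treated and untreated tumours within 1 population. Each ratio is the log2 of (CPM + 10) in a treated library over the untreated one, with an interval from the opposite Poisson bounds, and a ratio of at least 1.5-fold is counted. All 3 comparisons share the untreated library, so they are not independent of each other.

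In NK-like cells 9 of the 10 receptors were within 1.5-fold of untreated in each of the treated libraries, and Klrg1 was higher in all 3. Klrg1 rested on few molecules, 14, 22, 69 and 39 UMIs in 12, 11, 44 and 17 cells. Its levels were 10.1 (5.50 to 16.9), 35.7 (22.4 to 54.1), 30.9 (24.0 to 39.1) and 33.5 (23.8 to 45.7) CPM, and the untreated interval lay below the 3 others. Its ratio was 1.19 (0.27 to 2.05) under STING, 1.03 (0.34 to 1.66) under LTbR and 1.12 (0.33 to 1.85) under combined agonist treatment. The 3 cells with most Klrg1 held 35.7, 50, 23.2 and 41.0% of its UMIs. After thinning, 0.84, 1.92, 2.22 and 4.76% of NK-like cells had a Klrg1 UMI, levels at which single UMIs decide the share, and from which no change is read. With 50 CPM added in place of 10, the 3 ratios fell under 1.5-fold (0.51, 0.43 and 0.47), and under a gate on Eomes or Klra UMIs those with the LTbR agonist (0.52) and the combination (0.49) did so too. Under the STING agonist 5.47% of 8278 genes were counted higher and 4.12% lower, under the LTbR agonist 1.14% and 1.04% of 8138, and under the combination 2.45% and 1.61% of 8238. Against these shares the receptors gave 1 of 10 higher and 0 of 10 lower each time.

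The other receptors of NK-like cells moved little. With the STING agonist Ncr1 (0.43, 0.12 to 0.75), Klri2 (0.43, 0.06 to 0.80), Klrc1 (0.42, 0.06 to 0.77) and Klre1 (0.29, 0.00 to 0.57) had intervals at or above 0, all under 1.5-fold. Klre1 was at 0.23 (0.02 to 0.44) with the LTbR agonist and Klrb1c at 0.27 (0.05 to 0.48) with the combination. Klrd1 was at 0.03, -0.06 and -0.06 in the 3 comparisons. The median over the 10 receptors was 0.34, 0.08 and 0.08, beside 0.06, 0.00 and 0.02 over all genes. Macrophage markers summed to 61.1, 47.1, 59.5 and 70.3 CPM and T cell markers to 478, 409, 438 and 402 CPM in NK-like cells. Lyz2 was at 3.25 against 25.1 CPM with the STING agonist, and 1 T cell marker was lower in each comparison, Trbc2, Trac and Cd3d in turn. The part of these markers in the ratios was not tested.

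Of the receptors' partners in NK-like cells, 0 of 4 adaptors and 0 of 12 proximal signalling genes passed 1.5-fold in any comparison. Likewise 0 of the 6 or 7 other NK-complex genes that reached the minimum passed in any of the 3 comparisons. Of 4 ligand genes, 2 passed with the STING agonist, Ulbp1 (MULT1), at 26.0 against 11.5 CPM, and Cdh1, at 1.62 against 16.5 CPM. In NK-like cells of that library 3 UMIs were 4.87 CPM. The transcription factors Ikzf2 (27.6 against 71.1 CPM) and Tox (109 against 172 CPM) were lower with the STING agonist, and 0 of 11 passed in the other 2 comparisons. Among the cytotoxic effectors, the chemokine Ccl5 was higher in all 3 treated libraries, at 5562, 7082 and 5553 against 3293 CPM. Gzmf was at 128 against 1.44 CPM with the STING agonist, Gzmb (1224 against 1944 CPM) was lower with the LTbR agonist, and Xcl1 (575 against 952 CPM) and Ifng (55.7 against 93.4 CPM) were lower with the combination.

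ILC1-like cells held fewer cells and wider intervals. Klrc1 was higher with the STING agonist, at 781 against 448 CPM, a ratio of 0.79 (0.45 to 1.13), and it was at -0.30 (-0.75 to 0.15) with the LTbR agonist and 0.38 (0.00 to 0.76) with the combination. Klri2 was counted higher with the LTbR agonist, at 131 against 77.1 CPM (0.69, -0.16 to 1.55), and Klrg1 lower with the combination, at 42.6 against 74.7 CPM from 19 and 31 UMIs (-0.69, -1.70 to 0.33). Both of these intervals included 0, and under the gate on Eomes or Klra UMIs the ratios turned to -0.36 and 0.38. Klrd1 was lower with the LTbR agonist at 601 against 867 CPM (-0.52, -0.86 to -0.18), just under 1.5-fold. So 1, 1 and 0 of the 10 receptors were counted higher, beside 11.9% of 8383, 10.9% of 8419 and 11.2% of 8456 genes, and 0, 0 and 1 lower, beside 6.13%, 11.8% and 8.14%. Shares of 1 in 10 are near that background. The median over the receptors was 0.12, -0.33 and 0.00.

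Traces of T cell genes moved with the groups in ILC1-like cells. Cd4, Cd8a and Cd8b1 together were at 53.0, 17.9, 8.16 and 2.24 CPM, and the 8 T cell markers at 629, 517, 663 and 513 CPM. Macrophage markers were at 33.7, 31.0, 40.8 and 89.6 CPM. Without the cells that had a CD3 UMI, the Klrc1 ratio with the STING agonist was 0.78. Of the receptors' partners, 0 of 4 adaptors passed 1.5-fold. The proximal gene Ptpn6 was lower in all 3 treated libraries, at 139, 117 and 128 against 224 CPM, and Sh2d1a was lower in 2, at 24.5 CPM with the LTbR agonist and 15.7 CPM with the combination against 67.4 CPM. Of 14 cytotoxic effectors 6 were lower with the STING agonist and 1 higher, with Gzmf at 1.63 against 1127 CPM, Gzmb at 1041 against 2883 CPM and Gzmk at 35.9 against 9.63 CPM. With the LTbR agonist 6 were lower and 2 higher, led by Gzme (38.1 against 270 CPM), Gzma (707 against 2505 CPM) and Gzmf (585 against 1127 CPM). With the combination 2 of 13 were lower and 2 higher, led by Gzma (1127 CPM), Ccl5 (668 against 1274 CPM) and Gzmd (957 against 539 CPM). Of the 12 transcription factors 1, 1 and 4 were lower and 0, 1 and 0 higher, namely Eomes with the STING agonist (21.2 against 40.9 CPM), Tbx21 (T-bet; 223 against 405 CPM) lower and Tox (185 against 104 CPM) higher with the LTbR agonist, and Zfp683 (Hobit; 2.24 against 28.9 CPM), Prdm1 (2.24 against 16.9 CPM), Eomes (15.7 CPM) and Tbx21 (204 CPM) with the combination. Of 6 or 7 other NK-complex genes, 2, 0 and 2 were higher and 0, 1 and 1 lower. Clec2i was among the higher ones, at 47.3 CPM with the STING agonist and 40.3 CPM with the combination against 21.7 CPM, and Cd69 was at 189 against 89.1 CPM with the STING agonist. Klri1 was the lower one in both other comparisons, at 0 and 2.24 against 12 CPM, and Klrc3 was at 13.4 against 4.82 CPM with the combination. Of 4 ligand genes 1 passed, Ulbp1, at 2.72 against 12 CPM with the LTbR agonist. In ILC1-like cells 3 UMIs were 7.23 CPM untreated, 8.16 CPM with the LTbR agonist and 6.72 CPM with the combination. The treated levels given for Klri1, Ulbp1, Zfp683 and Prdm1, and the untreated level of Klrc3, were under 3 UMIs. These calls are therefore uncertain.

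**Figure D4:**
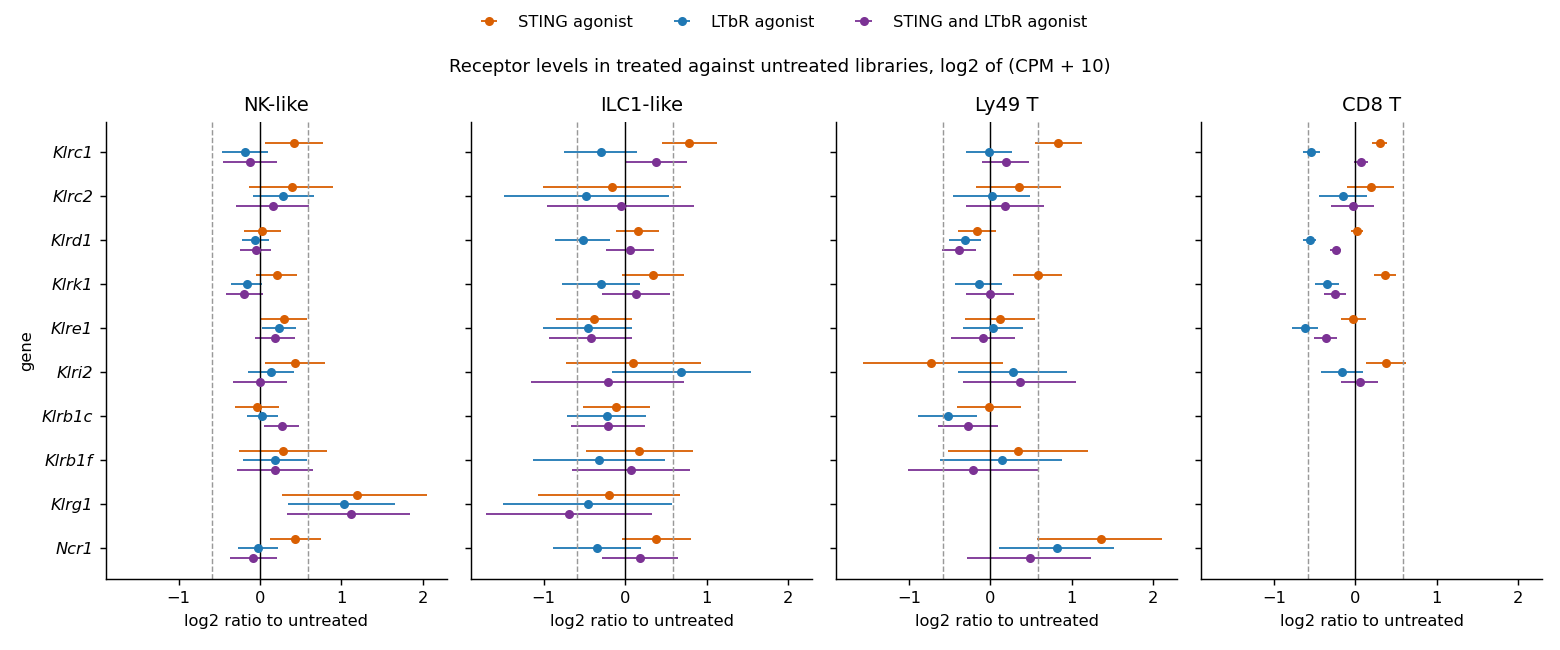
Log2 ratio of (CPM + 10) in each treated library over the untreated one for the receptors that reached 10 CPM, in 4 populations, with bars from the opposite 95% Poisson bounds and dashed lines at 1.5-fold in either direction. In NK-like cells only the 3 Klrg1 points lie beyond the dashed lines, and in CD8 T cells the LTbR agonist points of Klrc1, Klrd1 and Klre1 lie near the lower line (-0.54, -0.56 and -0.62).

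In Ly49 T cells the STING agonist library stood highest for several receptors. Klrc1 was at 268, 487, 265 and 308 CPM, and its ratio with the STING agonist was 0.84 (0.55 to 1.12). Klrk1 was at 415 against 274 CPM there, a ratio of 0.58 (0.28 to 0.88) that fell just short of 1.5-fold. Ncr1, from 18, 54, 66 and 40 UMIs, was at 15.9, 56.4, 35.9 and 26.3 CPM, with ratios of 1.36 (0.58 to 2.11), 0.82 (0.10 to 1.52) and 0.49 (-0.29 to 1.24). Klri2 was counted lower with the STING agonist, at 12.5 against 27.4 CPM from 12 and 31 UMIs, with an interval that included 0 (-0.73, -1.57 to 0.16). Of the 10 receptors, 9 reached 10 CPM, and 2, 1 and 0 of them were counted higher, beside 4.39% of 8504, 1.6% of 8312 and 1.82% of 8331 genes. Counts of lower receptors were 1, 0 and 0, beside 3.62%, 2.55% and 3.81%. Median depth in these cells was 4741, 6321, 5168.5 and 5766 UMIs, and cells carried 1.21, 1.71, 1.18 and 1.26 of the 10 receptors on average after thinning to 1000 UMIs. Cd4, Cd8a and Cd8b1 together ranged from 172 CPM in the untreated to 398 CPM in the combination library, and their part in the ratios was not tested.

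In CD8 cells the 6 receptors that reached 10 CPM were lowest in the LTbR agonist library, and the other 4 were not. Klre1 was at 241, 237, 154 and 185 CPM, and its ratio with the LTbR agonist was -0.62 (-0.78 to -0.46), past 1.5-fold. It was under 1.5-fold with sub-clusters averaged at fixed shares (-0.47), receptors allowed in clustering (-0.57), 50 CPM added (-0.52) and the mean of CPM per cell (-0.53). Klrd1 (-0.56, -0.64 to -0.48) and Klrc1 (-0.54, -0.64 to -0.43) lay just under 1.5-fold, and Klrk1 was at -0.35 (-0.50 to -0.21). With the STING agonist Klrk1 (0.37, 0.23 to 0.50), Klri2 (0.37, 0.13 to 0.62) and Klrc1 (0.30, 0.20 to 0.39) had intervals above 0 and Klrd1 was at 0.02 (-0.05 to 0.09). With the combination Klrd1 (-0.24), Klrk1 (-0.25) and Klre1 (-0.37) had intervals below 0, while Klrc1 was at 0.06 (-0.02 to 0.15). Of these 6 receptors 0, 0 and 0 were counted higher, beside 0.89% of 8423, 1.06% of 8391 and 0.576% of 8332 genes, and 0, 1 and 0 lower, beside 1.08%, 1.14% and 1.2%. The median over the 6 was 0.24, -0.45 and -0.14, against 0.02, 0.01 and -0.04 over all genes, and the -0.45 became -0.28 at fixed shares of the sub-clusters.

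The share of CD8 cells with a Klrc1 UMI was 80.2% (77.5 to 82.7), 87.7% (84.8 to 90.2), 68.5% (65.2 to 71.7) and 79.2% (76.6 to 81.7). After thinning it was 43.7, 47.7, 30.9 and 43.2%. Macrophage- or monocyte-like cells had one in 0.87 to 2.47%, or 0.17 to 0.48% when thinned. The share for Klrd1 was 88.5, 88.4, 81.1 and 84.6%, and 53.4, 55.6, 42.2 and 48.9% after thinning, against 0.50 to 1.35% in thinned macrophage- or monocyte-like cells. Median depth of CD8 cells was 6160.5, 6839, 5755 and 6246 UMIs, lowest in the LTbR agonist library, and the thinned shares were lowest there as well. The share of CD8 cells with none of the 10 receptors after thinning was 17.7, 15.7, 29.8 and 22.6%.

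CD8 sub-clusters differed in size between libraries. The Ccl3-led sub-cluster, which had most Klrd1, was 42.7, 32.3, 37.6 and 35.6% of CD8 cells, the granzyme C to F cells were 12.7, 19.3, 7.94 and 12.9%, and CD8 cells of the Ly49 sub-cluster were 3.65, 6.32, 12.2 and 8.33%. Ratios were therefore also taken within the 8 sub-clusters that had at least 20 CD8 cells in each library. With the LTbR agonist Klrd1 was lower in 8 of 8 (-0.75 to -0.11), Klre1 in 6 of 8 (-0.82 to 0.40), Klrk1 in 6 of 8 (-0.77 to 0.07) and Klrc1 in 5 of 8 (-0.66 to 0.36). With the STING agonist Klrc1 was higher in 7 of 8 (-0.14 to 1.19) and Klrk1 in 7 of 8 (-0.19 to 1.00). With the combination Klrc1 was higher in 8 of 8 (0.01 to 0.53) and Klrk1 in 4 of 8. Klrd1 (-1.08 to 0.17) and Klre1 (-0.65 to 0.42) were each lower in 5 of 8 there. No share over all genes is given beside these counts. The sub-clusters of 1 library share its preparation and are not replicates.

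**Figure D5:**
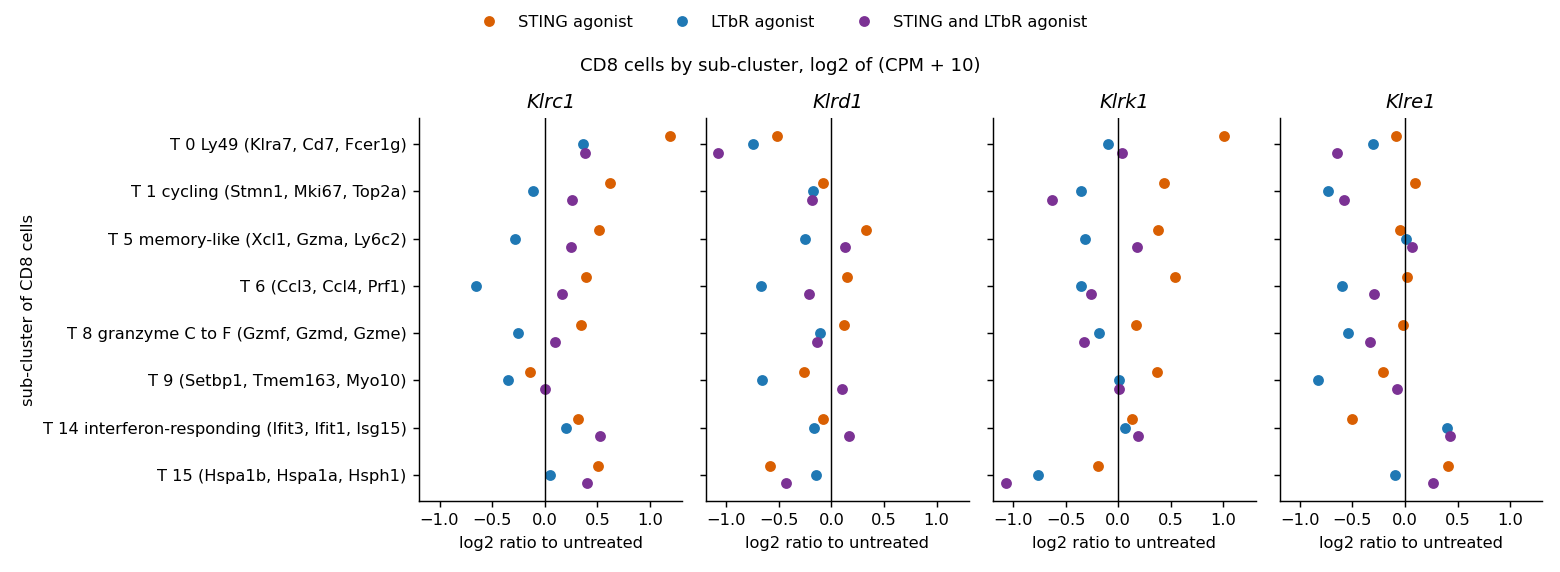
Log2 ratio of (CPM + 10) to untreated for 4 receptors within the 8 sub-clusters of CD8 cells that had at least 20 cells in each library, with 1 point per treated library and no interval. All 8 LTbR agonist points of Klrd1 lie left of 0 (-0.75 to -0.11), and 7 of the 8 STING agonist points of Klrc1 lie right of it.

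Markers of other cells also differed between the libraries of CD8 cells. Macrophage markers summed to 213, 42.4, 165 and 96.7 CPM, and neutrophil markers to 10.2, 4.46, 77.7 and 0.138 CPM. Their part in the ratios was not tested. Macrophage- or monocyte-like cells themselves had 46.5 to 67.6 CPM of Klrk1, 4.96 to 14.3 CPM of Klrd1 and 0.784 to 4.37 CPM of Klrc1. Among the cytotoxic effectors of CD8 cells 3 of 14 were higher and 2 lower with the STING agonist, led by Gzmf at 754 against 322 CPM, Gzma at 182 against 390 CPM and Xcl1 at 214 against 121 CPM. With the LTbR agonist 7 were lower and 1 higher, led by Gzme (18.3 against 58.0 CPM), Gzmf (138 against 322 CPM) and Prf1 (623 against 1251 CPM). With the combination 3 were lower, Xcl1 (42.0 CPM), Ccl5 (4386 against 7176 CPM) and Prf1 (793 CPM). Of 4 adaptors, Tyrobp was higher with the LTbR agonist (69.2 against 41.1 CPM), and 0 of 10 proximal signalling genes and 0 of 4 ligand genes passed in any comparison. Of 4 other NK-complex genes, Cd69 was higher with the STING agonist (193 against 107 CPM). Of 12 transcription factors, Tox was lower with the STING agonist (375 against 575 CPM) and the combination (281 CPM), and Ikzf2 was higher with the LTbR agonist (407 against 235 CPM).

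Receptors were then read cell by cell, after thinning each cell to 1000 UMIs. NK-like cells (1024) carried a mean of 2.45 of the 10 receptors, ILC1-like cells (269) 2.41, CD8 cells (3355) 1.42 and Ly49 T cells (920) 1.29. A Klrc1 UMI was found in 46.0% (43.6 to 48.4) of CD8 cells with a Klrd1 UMI and in 36.4% (34.1 to 38.7) of those without. In NK-like cells the same shares were 18.3% (14.8 to 22.1) and 17.2% (14.2 to 20.6), and in ILC1-like cells 45.9% (37.3 to 54.7) and 42.5% (34.0 to 51.4), with overlapping intervals. Klrb1c and Ncr1 were found together in 11.9% (9.99 to 14.1) of NK-like cells, 9.29% of ILC1-like cells, 0.98% of Ly49 T cells and 0 of 3355 CD8 cells, which allows a share of up to 0.0894% (3 counts of the total). Cells of a library are not replicates, and these shares describe detection at this depth.

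Over 89 sums of a sub-cluster in a library, the expression of other genes was set beside each receptor among 13696 genes, as a description across sums that share libraries and depth. Ncr1 resembled Klrb1a (r = 0.957), Klrb1c (0.952) and Car2 (0.936) most, and Klrb1c resembled Ncr1 (0.952), the Ly49 gene Klra9 (0.945) and Klrb1a (0.929). Klrb1f resembled Ncr1 (0.93), Klrb1c (0.912) and Klrb1a (0.91). Klrc1 was nearest to its partner Klrd1 (0.885), then Rgs3 (0.874) and the factor Tbx21 (0.859), and Klrd1 was nearest to Nkg7 (0.915), a protein of cytotoxic granules, then Klrc1 (0.885) and Klre1 (0.860). Klre1 was nearest to Dapk2 (0.884), Klri2 (0.874) and Sult2b1 (0.869), and Klri2 to Styk1 (0.881), Klre1 (0.874) and Arsb (0.851). Klrk1 had lower values, for Klre1 (0.803), Serpinb9 (0.796) and Chst12 (0.778). Klrc2 was nearest to Il12rb2 (0.888), a chain of the IL-12 receptor, with Cables1 (0.871) and Chsy1 (0.856). Klrg1 stood apart from the other receptors, nearest to Alox8 (0.744), Fam83g (0.737) and Ky (0.716).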

How the data were processed

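Live CD45+ tumour leukocytes were profiled by 10x 5′ single-cell RNA sequencing, with 1 library for each of the 4 groups and tumours pooled within a group. Per the submitters' processing notes, the authors made the deposited counts with Cell Ranger 7.1.0 against mm10. The values are raw counts of UMIs per gene and barcode in 1 matrix, in which the barcode ending assigns a library per the labels. Whether reads were equalised between libraries, and whether counting used strand, is not given in the sources used here.

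Cells with 300 to 5000 genes and at most 6% mitochondrial UMIs were kept. Counts were scaled to 10000 per cell and log-transformed, and 2000 variable genes, without the 10 receptors, were reduced to 30 principal components, joined in a graph of 20 neighbours and clustered with Leiden at resolution 1 (Python 3.11.15, scanpy 1.11.5, leidenalg 0.10.2, numpy 2.4.6, scipy 1.17.1, pandas 2.3.3, scikit-learn 1.9.0, scikit-image 0.26.0, matplotlib 3.10.9). The NK- and ILC-like and T-like classes were clustered again. A name needed at least 3 detected markers (in at least 10% of cells) and at least 2 markers, more than for any other name, in the list of the 10 leading genes. Sub-clusters of the NK- and ILC-like class with a CD3 UMI in at least 50% of cells were moved to the T-like class. Both rules were fixed with the clusters in view. Doublets were kept, and their removal is not described in the sources used here.

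UMIs were summed per population and library, given as CPM with exact Poisson intervals at 95%, and set against each other on the log2 scale with 10 CPM added, among genes with at least 10 CPM in 1 library compared. Populations of at least 20 cells per library were ranked by their mean, and called different when their 4 library values did not overlap. Shares have exact (Clopper-Pearson) intervals, also after thinning to 1000 UMIs per cell with shallower cells left out. A count of 0 is read as an upper limit of 3 counts. These intervals hold no biological error, and no test was made on single libraries. The calling script was tested on simulated counts with known changes and counting error only. The changed genes lay above the levels of Klrg1 in NK-like and ILC1-like cells, so calls at such low levels were not covered.

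The 10 receptors and the gene lists were chosen with earlier results of these data known. The lists were other NK-complex genes, adaptors, proximal signalling, ligands, transcription factors, cytotoxic effectors and markers of other cells. Named genes were all receptors, up to 3 genes of a list with the largest change past 1.5-fold, and the 3 genes most correlated with each receptor. Hcst, Fcer1g, H2-T23, Ptpn6 and Runx3 in the NK-like against ILC1-like comparison, and Tbx21 with the combination, were named after their values were seen. Alternatives were pseudocounts of 1 and 50 CPM, the mean of CPM per cell, median-of-ratios size factors, sub-clusters at resolution 2, a gate on Eomes or Klra UMIs, receptors allowed in clustering, a Scrublet score of 0.2, no limits on cells, no minimum, and thinning. Leaving out cells with a CD3 UMI and averaging CD8 sub-clusters at fixed shares were added after seeing the data. Promoter windows are RefSeq's on GRCm38.p6 and gene positions those of GRCm38.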

Additional observations from a re-analysis of the deposited data

Results flagged for a closer look

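Klrg1 moved in opposite directions in the 2 innate populations under the combination. Its log2 ratio of (CPM + 10) to untreated was 1.12 in NK-like cells, from 39 against 14 UMIs, and -0.69 in ILC1-like cells, from 19 against 31 UMIs. The difference between the 2 populations was not tested, and the ILC1-like interval (-1.70 to 0.33) included 0. When the populations were gated on Eomes or Klra UMIs, the ILC1-like ratio was 0.38, the same direction as the 0.49 of NK-like cells, and with sub-clusters at resolution 2 it was -0.35, under 1.5-fold. In ILC1-like cells 45.2% of the Klrg1 UMIs of the untreated library and 57.9% of those of the combination came from 3 cells. After thinning, the share of cells with a Klrg1 UMI was 4.76% with the combination against 0.84% in NK-like and 7.14% against 3.39% in ILC1-like cells. Before thinning these shares were 7.11% against 4.92% in NK-like and 12.3% against 24.2% in ILC1-like cells. Single UMIs decide the thinned shares, so no direction is read from them.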

How the results depend on the processing

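No paired analysis was possible because each group has 1 library. Of the receptor ratios recomputed under the alternatives, 827 stayed within the main counting interval, 11 moved further and 2 turned direction. Both turned under the gate on Eomes or Klra UMIs in ILC1-like cells, Klri2 with the LTbR agonist to -0.36 and Klrg1 with the combination to 0.38. Klrg1 in NK-like cells passed 1.5-fold under 10, 9 and 9 of 11 alternatives, with ratios of 0.51 to 1.73, 0.43 to 1.53 and 0.47 to 1.64 in the 3 comparisons. Klrc1 in ILC1-like cells with the STING agonist passed under all 11 (0.66 to 0.98). The Scrublet score removed no NK-like or ILC1-like cell, and dropping the minimum does not change a ratio. Those alternatives could therefore not alter the NK-like and ILC1-like ratios. Klre1 in CD8 cells with the LTbR agonist passed under 6 of 10 (-0.68 to -0.47). The CD8 median of the receptors without the minimum, which adds the 4 lowest receptors, was -0.16 with the LTbR agonist and 0.011 with the combination, and with sub-clusters averaged at fixed shares it was -0.28 with the LTbR agonist. Receptors below ILC1-like cells without overlap were 1 and not 2 without limits on cells, under the gate and by the mean of CPM per cell. Those above were 2 and not 4 under the gate, and no share over all genes is given beside these counts. The cause of these changes was not tested, apart from the added receptors. Thinning to 1000 UMIs moved 118 shares beyond their interval and 2 by less, as fewer UMIs per cell must. Depth limits Klrg1, at 14 to 69 UMIs per library in NK-like and ILC1-like cells.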

Other observations

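Lymphocytes were not the only cells with these receptors. Dendritic-like cells (1727) had 314 to 416 CPM of Klrd1 and 196 to 311 CPM of Klrk1 over the 4 libraries, and carried 16.4% of all Klrd1 UMIs and 21.3% of all Klrk1 UMIs. Klrc1, the usual partner of Klrd1, was at 10.1 to 10.8 CPM there, and Ncr1 at 0.38 to 1.89 CPM. Cluster 1, led by Cst3 and Cd209a (1050 cells), had 458, 484, 378 and 369 CPM of Klrd1 and 362, 342, 232 and 259 CPM of Klrk1, with a Klrk1 UMI in 75.8% of cells. It also had 34.4 to 56.8 CPM of Klri2. Cluster 22, led by Siglech and Ccr9 (242 cells), genes of plasmacytoid dendritic cells, had 318 to 430.3 CPM of Klrd1 but 26.1 to 41.9 CPM of Klrk1 and 0 to 3.3 CPM of Klri2. Cluster 14, led by Fscn1, Ccr7 and Ccl22 (435 cells), had 109 to 195 CPM of Klrd1 and 168 to 318 CPM of Klrk1. Median depth was 9067 to 11756.5 UMIs in these clusters, above that of lymphocytes. These values were looked up after the data were seen.

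In ILC1-like cells the share with a Klrc1 UMI after thinning was 33.9, 50, 32.1 and 55.7%, above the 17.6, 26.0, 15.8 and 17.7% of NK-like cells in each library.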
